A study of Mus musculus with 8 samples.

Results

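The genes described here are 38 listed mouse genes of the immediate early and stress responses, measured in neurospheres, clusters of cultured neural stem and progenitor cells. They were chosen by name, through the RefSeq accession that each probe of the array carries, and not by their values. In all, 37 of the 38 had a probe, out of 20660 genes named on the array. No probe carried the accession of Hspa1b. Of the 37, 34 stood well above background throughout at least 1 group of arrays and were tested. Fosl1, Egr3 and Nr4a3 did not, and reached that level on 1, 2 and 2 of 8 arrays.

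Expression was measured on 8 single-colour Agilent arrays of 1 slide. There were 2 arrays of HP1gamma KO cells in adherent culture (KO adherent), 3 of HP1gamma KO cells in floating culture (KO floating) and 3 of wild-type cells in floating culture (WT floating). All cells were taken from the ganglionic eminence at E14.5, with 1 embryonic brain per sample, and quaternary neurospheres were used. The medium held EGF and bFGF, each at 20 ng/ml, and B-27, and spheres grew for 7 days. The labels describe low-attachment plates for every sample and do not describe the adherent culture further, nor do they say how the KO allele was made. They also do not say whether floating and adherent cells came from shared embryos.

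Cbx3, which encodes HP1gamma, a heterochromatin protein that recognises methylated histones, did not follow every label. Levels here are log2 values minus the 75th percentile of the array, so 0 is that percentile. Cbx3 was at -2.03 and 5.91 on KO adherent 1 and 2, at -1.86, -2.76 and -1.75 on KO floating 1, 2 and 3, and at 5.83, -2.17 and 5.95 on WT floating 1, 2 and 3. The arrays labelled KO adherent 2 and WT floating 2 thus oppose their labels, so the first comparisons are given with and without them and the joined comparison without them. A second Cbx3 probe separated the arrays in the same way. The labels do not say whether either probe lies in a deleted stretch, so the level checks the labels only as far as that.

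Immediate early genes are switched on within minutes of a growth factor, calcium or stress signal, without new protein synthesis, through factors already in the cell such as SRF and CREB. Many encode transcription factors (Fos, Jun, Egr, Nr4a and Klf families), and others encode proteins that end the response, such as the phosphatase Dusp1 and the mRNA decay factor Zfp36. Their mRNAs are short-lived, and they are also known to be induced when tissue or cells are handled. The other listed genes act in the unfolded protein and integrated stress responses, in which Atf4 and Ddit3 raise stress targets and Hspa5 and Hsp90b1 fold proteins in the endoplasmic reticulum, in the heat shock response, and in growth arrest.

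The 250 bases before the start of a gene hold many of the elements through which these responses are known to act, and RefSeq windows on GRCm38.p6 were found for 33 of the 38 genes. The 6 windows shown were chosen to cover the signal-response elements in genes that varied over the arrays. They are written from 5′ to 3′ on the strand of the gene, and the last base lies next to the first transcribed base. Capitals mark, in Nr4a1, an Egr site, in Zfp36, an Egr site and then a CArG box (the SRF element), in Dusp1, a CRE (the CREB element), in Hspa5, an AP-1 site and then an endoplasmic reticulum (ER) stress element, in Hsp90b1, 2 ER stress elements, and in Btg2, a CRE and then an Egr site.
Nr4a1 promoter, chr15:101266596-101266845, plus strand: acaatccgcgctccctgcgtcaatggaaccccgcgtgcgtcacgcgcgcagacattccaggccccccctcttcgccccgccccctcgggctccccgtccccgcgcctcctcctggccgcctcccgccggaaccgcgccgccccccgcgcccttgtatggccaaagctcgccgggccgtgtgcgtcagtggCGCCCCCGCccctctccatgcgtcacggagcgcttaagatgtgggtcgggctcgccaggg
Zfp36 promoter, chr7:28379229-28379478, minus strand: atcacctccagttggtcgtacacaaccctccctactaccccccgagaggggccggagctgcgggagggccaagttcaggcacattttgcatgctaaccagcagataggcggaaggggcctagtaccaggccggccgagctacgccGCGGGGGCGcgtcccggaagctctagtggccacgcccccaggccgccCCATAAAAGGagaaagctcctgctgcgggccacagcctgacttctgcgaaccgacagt
Dusp1 promoter, chr17:26508473-26508722, minus strand: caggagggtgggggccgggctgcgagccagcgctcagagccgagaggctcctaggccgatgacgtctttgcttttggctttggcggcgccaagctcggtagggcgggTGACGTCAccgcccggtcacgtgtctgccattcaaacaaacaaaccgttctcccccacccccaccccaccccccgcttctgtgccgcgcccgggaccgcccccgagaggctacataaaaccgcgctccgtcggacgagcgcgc
Hspa5 promoter, chr2:34771840-34772089, plus strand: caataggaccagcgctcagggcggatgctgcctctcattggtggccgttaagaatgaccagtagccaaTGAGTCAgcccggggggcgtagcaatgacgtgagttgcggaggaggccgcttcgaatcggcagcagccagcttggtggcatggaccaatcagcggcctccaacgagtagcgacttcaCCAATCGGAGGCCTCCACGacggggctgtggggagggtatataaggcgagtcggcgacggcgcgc
Hsp90b1 promoter, chr10:86705445-86705694, minus strand: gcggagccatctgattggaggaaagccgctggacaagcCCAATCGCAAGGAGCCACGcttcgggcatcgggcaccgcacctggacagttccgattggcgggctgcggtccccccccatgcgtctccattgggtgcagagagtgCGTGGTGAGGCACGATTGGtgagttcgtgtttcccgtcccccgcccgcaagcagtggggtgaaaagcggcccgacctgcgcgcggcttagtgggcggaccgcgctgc
Btg2 promoter, chr1:134079156-134079405, minus strand: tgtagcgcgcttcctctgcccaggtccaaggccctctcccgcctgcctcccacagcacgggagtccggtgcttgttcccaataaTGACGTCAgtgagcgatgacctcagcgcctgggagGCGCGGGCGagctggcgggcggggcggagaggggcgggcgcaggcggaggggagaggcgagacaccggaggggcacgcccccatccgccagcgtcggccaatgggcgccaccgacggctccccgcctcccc
Motifs were searched on both strands as CRE TGACGTCA, AP-1 site TGANTCA, Egr site GCGNGGGCG, amino acid response element TGATGNAAT, and by their known consensus the ER stress element, the heat shock element and the CArG box. No matches overlapped each other in the windows shown. The CArG box of Zfp36 began 58 bases before the gene start and the CRE of Dusp1 began 143 bases before it. Among all 32851 windows of the same length, 1.47% held a CArG box, 1.55% a CRE, 6.75% an AP-1 site, 4.7% an Egr site and 0.113% an ER stress element. Of the 33 genes, 2 held a CArG box (Egr2 and Zfp36), 3 a CRE (Btg2, Dusp1 and Maff), 2 an AP-1 site (Ddit3 and Hspa5), 10 an Egr site and 2 an ER stress element. The amino acid response element and the heat shock element, found in 0.816% and 0.466% of all windows, matched in none of the 33. Each element was searched as a fixed spelling over 250 bases, so the lack of a match does not show that a gene lacks the element. A match is a string of letters, and binding was not measured here.

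Across the arrays, one pattern ran through the listed genes. The arrays labelled KO floating 2 and WT floating 2 were the lowest 2 of 8 for 34 of 34 tested genes, KO floating 2 being the lowest for 18 and WT floating 2 for 16. Of all 22641 tested features with a value on every array, 6107 (27%) had the same lowest pair. The pair was picked out from these values, so no test is given, and the pair holds an array of each genotype label, both of floating culture. Both arrays had a low Cbx3 level (-2.76 and -2.17), so by Cbx3 the pair does not hold both genotypes, and KO floating 1, KO floating 3 and KO adherent 1 had low Cbx3 without the low early genes. The count was 32 of 34 under quantile normalization and 30 of 34 with no scaling between arrays. KO floating 2 and WT floating 2 carry the same replicate number, lie side by side on the slide (row 1, columns 3 and 4) and correlated best with each other over all features (r = 0.9916, across features, which are not replicates). Other arrays correlated about as highly, at 0.9919 for KO adherent 1 with KO floating 1 and 0.9897 for WT floating 1 with WT floating 3. The part of slide position in the low levels was not tested. In bulk RNA, fewer cells expressing a gene and less RNA per cell cannot be told apart.

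**Figure D1:**
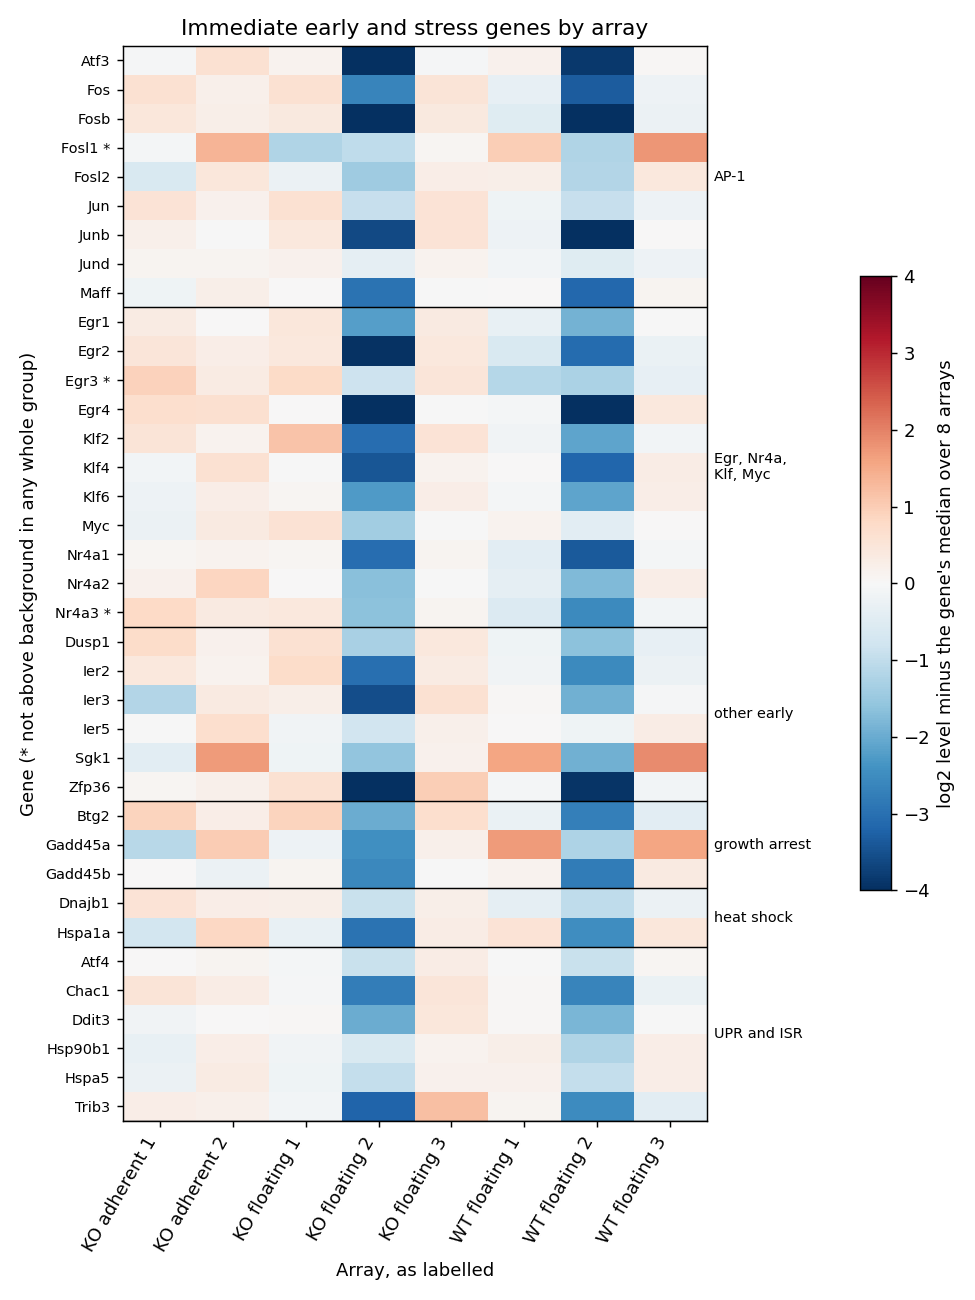
Log2 level on each array of each listed gene with a probe, minus the gene's median over the 8 arrays (colour, ending at ±4). Genes are in rows by role and the arrays, as labelled, in columns (KO adherent, KO floating, WT floating from left to right). Asterisks mark the genes not tested. The columns of KO floating 2 and WT floating 2 are the low ones in every row of a tested gene. Of the genes not tested, Fosl1 and Egr3 did not have this lowest pair.

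The size of the drop varied among the genes. The distance from the second-lowest to the third-lowest array, called the drop here, had a median of 1.72 on the log2 scale (3.30-fold) over the 34 genes, with a range of 0.02 (Ier5) to 4.37 (Egr4, 20.6-fold). It exceeded the whole spread of the other 6 arrays in 23 of 34 genes. By role, the median drop was 2.55 for the AP-1 genes (8 tested), 1.99 for the Egr, Nr4a, Klf and Myc genes (9), 1.05 for the other early genes (6), 1.26 for the unfolded protein and integrated stress genes (6), 1.14 for the heat shock genes (2) and 1.57 for the growth arrest genes (3). These are descriptions, and no difference between roles was tested. The median deviation of the 34 genes from their own medians was 0.08 and 0.26 on KO adherent 1 and 2, 0.10, -2.53 and 0.28 on KO floating 1, 2 and 3, and -0.04, -2.11 and -0.01 on WT floating 1, 2 and 3. The median over the set was thus near 0 on 6 arrays and below -2 on the other 2, but not every role reached that size. On KO floating 2 and WT floating 2 the median deviation was -1.47 and -1.51 for the unfolded protein and integrated stress genes. For the heat shock genes it was -1.93 and -1.75.

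Among the AP-1 genes, whose products pair into the AP-1 transcription factor, Fos had 6.79 and 6.37 on KO adherent 1 and 2, 6.78, 3.54 and 6.68 on KO floating 1, 2 and 3, and 5.86, 2.84 and 5.98 on WT floating 1, 2 and 3. Its third-lowest array lay 5.00-fold above the second-lowest, and the 3 groups overlapped. Fosb, a Fos paralogue, had 4.20 and 3.97 on KO adherent 1 and 2, 4.12, -0.24 and 4.12 on KO floating 1, 2 and 3, and 3.25, -0.46 and 3.49 on WT floating 1, 2 and 3, with a drop of 11.2-fold. Jun, the commonest partner of Fos, moved less, with 7.03 and 6.65 on KO adherent 1 and 2, 7.08, 5.56 and 7.02 on KO floating 1, 2 and 3, and 6.28, 5.55 and 6.26 on WT floating 1, 2 and 3. Leaving the low pair aside, all 3 genes were higher on each array labelled KO than on WT floating 1 and 3. Atf3, a stress-induced relative of these factors, had 1.77 and 2.44 on KO adherent 1 and 2, 1.97, -2.42 and 1.80 on KO floating 1, 2 and 3, and 2.01, -2.03 and 1.87 on WT floating 1, 2 and 3. Its drop was 13.9-fold, and its other 6 arrays showed no order by genotype. Of the remaining AP-1 genes, Junb and Maff dropped 10.7-fold and 6.88-fold and Fosl2 and Jund 1.46-fold and 1.12-fold by the same measure.

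**Figure D2:**
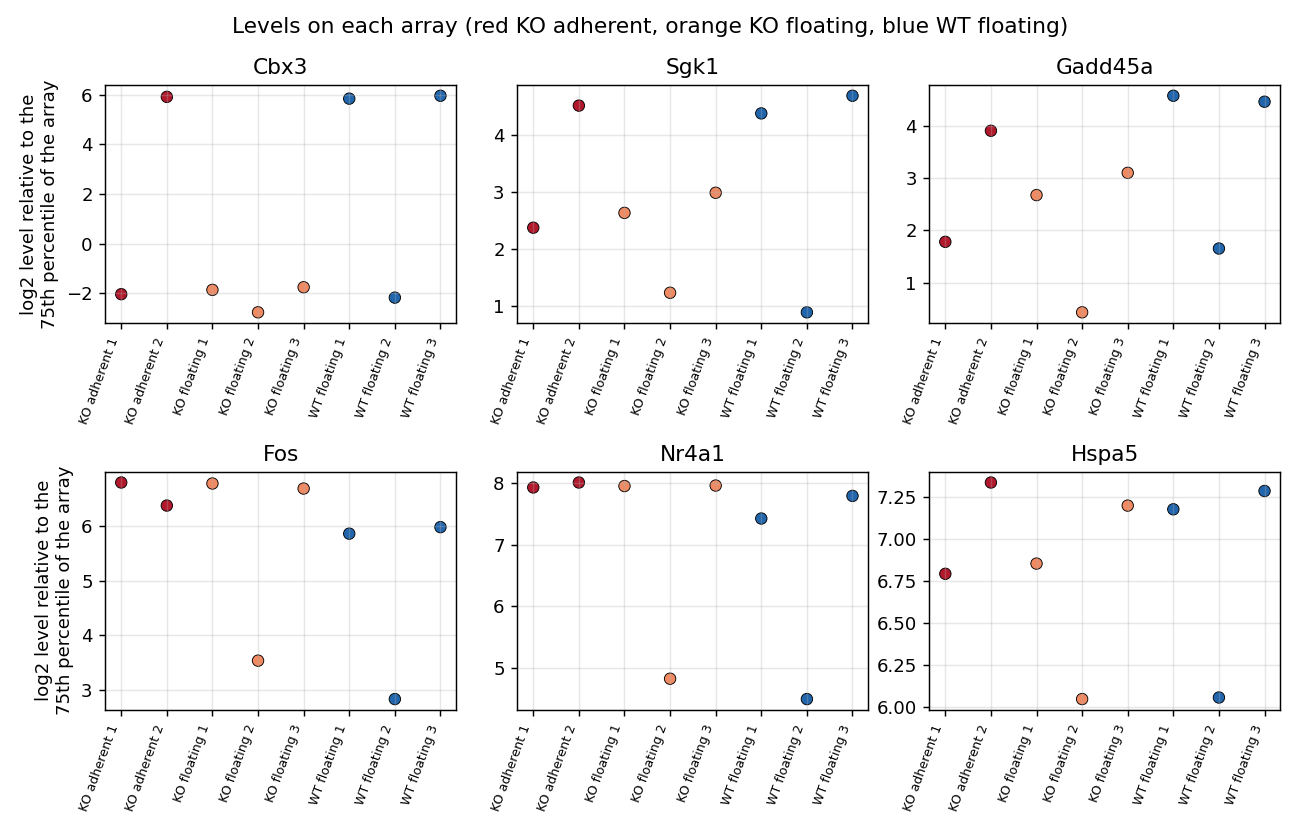
Log2 level minus the 75th percentile of the array (points) for Cbx3 and the listed genes Sgk1, Gadd45a, Fos, Nr4a1 and Hspa5. The groups KO adherent, KO floating and WT floating run from left to right. In each panel the arrays numbered 2 of the floating groups lie lowest, for example 3.54 and 2.84 for Fos. For Cbx3, WT floating 2 (-2.17) lies only just below KO adherent 1 (-2.03).

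The zinc finger factors Egr1, Egr2 and Egr4 and the orphan nuclear receptor Nr4a1, all classical early genes, fell in the same place. Nr4a1 had 7.93 and 8.01 on KO adherent 1 and 2, 7.96, 4.83 and 7.96 on KO floating 1, 2 and 3, and 7.43, 4.50 and 7.79 on WT floating 1, 2 and 3. Egr1 had 7.48 and 7.18 on KO adherent 1 and 2, 7.60, 4.96 and 7.52 on KO floating 1, 2 and 3, and 6.85, 5.25 and 7.12 on WT floating 1, 2 and 3. The drop came to 6.07-fold in Nr4a1 and 3.03-fold in Egr1. Egr2 had 6.00 and 5.80 on KO adherent 1 and 2, 5.95, 1.57 and 5.96 on KO floating 1, 2 and 3, and 4.92, 2.45 and 5.25 on WT floating 1, 2 and 3. Egr4 had 5.87 and 5.83 on KO adherent 1 and 2, 5.19, 0.73 and 5.18 on KO floating 1, 2 and 3, and 5.09, 0.27 and 5.62 on WT floating 1, 2 and 3. Egr2 split the other 6 arrays by genotype label and Egr4 did not. Klf2, a zinc finger factor of the Krüppel-like family, had 2.50 and 2.11 on KO adherent 1 and 2, 3.13, -1.08 and 2.52 on KO floating 1, 2 and 3, and 1.86, -0.13 and 1.86 on WT floating 1, 2 and 3, a drop of 3.96-fold. Its relatives Klf4 and Klf6 dropped 8.32-fold and 3.73-fold, and Nr4a2 2.49-fold. Myc, a growth regulator, showed the smallest drop of this group at 1.14-fold. Egr3 and Nr4a3, not tested on the 8 arrays, had medians over the 8 arrays of -4.90 and -4.45, and Fosl1 of -5.00, all near the background of the arrays.

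The other early genes ranged from a steep to a nearly flat profile. Zfp36, which encodes the mRNA decay factor tristetraprolin, had 1.39 and 1.50 on KO adherent 1 and 2, 1.92, -3.30 and 2.28 on KO floating 1, 2 and 3, and 1.22, -2.62 and 1.19 on WT floating 1, 2 and 3, a drop of 14.0-fold. Dusp1, a phosphatase that switches off MAP kinases, had 3.54 and 2.99 on KO adherent 1 and 2, 3.43, 1.53 and 3.24 on KO floating 1, 2 and 3, and 2.66, 1.17 and 2.49 on WT floating 1, 2 and 3. The window of Zfp36 shown above carries the SRF element and that of Dusp1 the CREB element. Ier3 had 0.96 and 2.51 on KO adherent 1 and 2, 2.38, -1.41 and 2.76 on KO floating 1, 2 and 3, and 2.19, 0.23 and 2.09 on WT floating 1, 2 and 3. KO adherent 1 lay between the low pair and the rest for this gene. Sgk1, a kinase induced by serum and glucocorticoids, had 2.38 and 4.52 on KO adherent 1 and 2, 2.64, 1.24 and 2.99 on KO floating 1, 2 and 3, and 4.38, 0.89 and 4.69 on WT floating 1, 2 and 3. Its 3 highest arrays, KO adherent 2 and WT floating 1 and 3, were those with a high Cbx3 level. Ier2 had 2.52 and 2.22 on KO adherent 1 and 2, 2.83, -0.92 and 2.43 on KO floating 1, 2 and 3, and 1.95, -0.46 and 1.86 on WT floating 1, 2 and 3, a drop of 4.99-fold. Ier5 dropped 1.02-fold by the probe tested on 8 arrays and 3.58-fold by its second probe, so its probes disagree in size.

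Genes of the unfolded protein and integrated stress responses shared the low pair with smaller drops in the chaperones. Hspa5, the chaperone BiP, had 6.79 and 7.34 on KO adherent 1 and 2, 6.85, 6.05 and 7.20 on KO floating 1, 2 and 3, and 7.18, 6.06 and 7.29 on WT floating 1, 2 and 3. Atf4, the transcription factor at the centre of the integrated stress response, had 7.76 and 7.86 on KO adherent 1 and 2, 7.69, 6.86 and 8.05 on KO floating 1, 2 and 3, and 7.75, 6.85 and 7.83 on WT floating 1, 2 and 3. The drop was 1.67-fold in Hspa5 and 1.78-fold in Atf4, and a second Atf4 probe gave 1.48-fold. Trib3, a pseudokinase induced by Atf4, had 3.96 and 3.90 on KO adherent 1 and 2, 3.57, 0.47 and 4.88 on KO floating 1, 2 and 3, and 3.79, 1.16 and 3.24 on WT floating 1, 2 and 3. Chac1, a glutathione-degrading enzyme of the same pathway, had 3.12 and 2.91 on KO adherent 1 and 2, 2.58, -0.16 and 3.09 on KO floating 1, 2 and 3, and 2.66, -0.02 and 2.35 on WT floating 1, 2 and 3. Their drops were 4.23-fold and 5.17-fold. Ddit3 (CHOP, a factor of prolonged stress) dropped 3.23-fold and Hsp90b1 (the chaperone GRP94), whose window holds ER stress elements like that of Hspa5, 1.23-fold.

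The heat shock genes were represented by a chaperone and a cochaperone. Hspa1a, an inducible HSP70, had -1.85 and -0.28 on KO adherent 1 and 2, -1.42, -4.07 and -0.80 on KO floating 1, 2 and 3, and -0.57, -3.60 and -0.65 on WT floating 1, 2 and 3, and was well above background on 7 of 8 arrays. Dnajb1, a cochaperone of HSP70, had 6.09 and 5.80 on KO adherent 1 and 2, 5.80, 4.65 and 5.78 on KO floating 1, 2 and 3, and 5.17, 4.54 and 5.31 on WT floating 1, 2 and 3. The probe for Hspa1a may also detect its near-identical copy Hspa1b, which the array does not name. Among the growth arrest genes, Btg2, an antiproliferative early gene, had 4.13 and 3.50 on KO adherent 1 and 2, 4.12, 1.23 and 3.89 on KO floating 1, 2 and 3, and 2.95, 0.50 and 2.80 on WT floating 1, 2 and 3. Gadd45a, induced by DNA damage and other stress, had 1.78 and 3.91 on KO adherent 1 and 2, 2.68, 0.43 and 3.11 on KO floating 1, 2 and 3, and 4.59, 1.65 and 4.47 on WT floating 1, 2 and 3. On the other 6 arrays Btg2 was higher, and Gadd45a lower, on each array labelled KO than on WT floating 1 and 3. Gadd45a was next highest on KO adherent 2 (3.91), so its highest arrays were also those with a high Cbx3 level. For Gadd45a the third-lowest array, KO adherent 1, was only 1.09-fold above the second-lowest. Gadd45b dropped 5.14-fold, with its other arrays within 2.20 to 2.81.

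When KO floating was set against WT floating as labelled, the comparison of genotypes in one culture, 0 of 34 genes passed the threshold, a Benjamini-Hochberg adjusted limma p of 0.05, and 0 had an unadjusted p under 0.05. Of all 22712 features, 1 passed (0.0044%), and 0 with a replicate block. The genes were higher in KO in 22 and lower in 12, with a median log2 difference of 0.08 against -0.03 over all features. Gadd45a averaged 2.07 ± 1.44 in KO floating and 3.57 ± 1.66 in WT floating (SD, n = 3 each), a difference of -1.50 (SE 1.06, limma adjusted p = 0.814). Jun averaged 6.55 ± 0.86 in KO floating and 6.03 ± 0.42 in WT floating (SD, n = 3 each), a difference of 0.52 (SE 0.44, limma adjusted p = 0.814). Jund differed by 0.24 (SE 0.21, limma adjusted p = 0.814). These 3 had the smallest p of the set, and none differed beyond the spread between replicates. With a low array in each group the spread was wide, and Fos, for example, averaged 5.67 ± 1.84 in KO floating and 4.89 ± 1.78 in WT floating (SD, n = 3 each). The median depended on single arrays, at 1.02 when KO floating 2 was left out, -0.63 when WT floating 2 was, and 0.27 with neither, and 0 genes passed in any of these fits.

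In KO adherent against KO floating neurospheres, 0 of 34 genes passed in limma and 0 had an unadjusted p under 0.05, and 0 of 22712 features passed (0%). Every one of the 34 was higher in adherent culture, with a median log2 difference of 0.78 against 0.06 over all features. Ier5 averaged -1.61 ± 0.48 in KO adherent (SD, n = 2) and -2.16 ± 0.49 in KO floating (SD, n = 3), a difference of 0.55 (SE 0.35, limma adjusted p = 0.99). Nr4a2 differed by 1.07 (SE 0.71, limma adjusted p = 0.99) and Dnajb1 by 0.53 (SE 0.41, limma adjusted p = 0.99). Without KO floating 2, the low array of the floating group, 12 of 34 genes were higher in adherent culture and the median was -0.06. Without KO adherent 2 and WT floating 2, KO adherent 1 stood alone against a floating group that still held the low array KO floating 2. There 30 of the same 34 were higher in adherent culture and the median was 0.80. With the slide row as a block the median was -0.05, and with a replicate block 1.24. Both adherent arrays lie in row 2 of the slide, and both low floating arrays lie in row 1. The row block therefore cannot separate slide row from the low pair, and the part of each was not tested.

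Leaving out the arrays labelled KO adherent 2 and WT floating 2, KO floating (n = 3) was set against WT floating (n = 2), with KO adherent 1 in the fit as a lone array assumed to vary like the others. Again 0 genes passed in limma, of 36 that met the background filter, against 46 of 26031 features (0.177%, with 0.096% called higher and 0.0807% called lower), which fell to 0 with a replicate block. The further genes, Egr3 and Nr4a3, met that filter only through the lone array KO adherent 1 and are in no other count. Over the 34 genes tested on 8 arrays, 5 were higher and 29 lower in KO, with a median of -0.63 against -0.04 over all features, and 2 of the 36 had an unadjusted p under 0.05. Sgk1 averaged 2.29 ± 0.93 in KO floating (SD, n = 3) and 4.53 ± 0.22 in WT floating (SD, n = 2), a difference of -2.25 (SE 0.56, limma adjusted p = 0.122). Gadd45a differed by -2.46 (SE 0.85, limma adjusted p = 0.169) and Hsp90b1 by -0.46 (SE 0.26, limma adjusted p = 0.325). The negative median rested on KO floating 2, since without it the median was 0.27 and 22 of the 34 genes were higher in KO.

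Joining the 4 KO arrays left after that step, of both cultures, against WT floating 1 and 3 compared genotypes over more arrays, although culture differs within the KO arrays and not within the WT arrays. Sgk1 alone passed of 34 genes in limma, while 3725 of 21510 features (17.3%) did, with 8.98% called higher in KO and 8.34% called lower. Sgk1 averaged 2.31 ± 0.76 in KO (SD, n = 4) and 4.53 ± 0.22 in WT floating (SD, n = 2), a log2 difference of -2.22 (SE 0.47, limma adjusted p = 0.0322). All 4 KO arrays, from 1.24 to 2.99, were below the WT arrays at 4.38 and 4.69. The array labelled KO adherent 2 (4.52) and the one labelled WT floating 2 (0.89), both left out, lay on the side of the opposite label. WT floating 2 was among the lowest 2 arrays for all 34 tested genes, so its low value was not particular to Sgk1 and says nothing further about the label. Gadd45a just missed the threshold at -2.53 (SE 0.72, limma adjusted p = 0.0566). The set as a whole had 6 genes higher and 28 lower in KO, with a median of -0.44 against -0.07 over all features, and the median was 0.14 with a replicate block.

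The same comparison was also made without KO floating 2, which is the lowest KO array for every tested gene of the set. The array was singled out from the values of these genes, and leaving out the lowest array raises every KO mean and narrows its spread, so the calls that follow are conditional on that choice and are a description, not evidence for a genotype difference. Then 12 of 34 genes passed in limma, 10 higher and 2 lower in KO, against 5383 of 22819 features (23.6%), of which 13.4% of all features were higher and 10.2% lower. On the higher side were Btg2, Fos, Jun, Fosb, Egr1, Egr2, Klf2, Ier2, Dusp1 and Dnajb1. Fos averaged 6.75 ± 0.06 in KO (SD, n = 3) and 5.92 ± 0.08 in WT floating (SD, n = 2), a difference of 0.83, against 0.03 with KO floating 2 included. Jun averaged 7.04 ± 0.03 in KO (SD, n = 3) and 6.27 ± 0.01 in WT floating (SD, n = 2), a difference of 0.77, against 0.40 with that array. The other 8 differed by 0.55 to 1.17. Of these, Fosb, Egr2, Ier2, Egr1 and Klf2 turned sign with the array, being at 0.78, 0.88, 0.69, 0.55 and 0.86 without it and at -0.32, -0.22, -0.19, -0.09 and -0.09 with it. The median over the set likewise was 0.10 without the array and -0.44 with it. Sgk1 at -1.87 and Gadd45a at -2.01 were lower in KO in both fits, although Gadd45a did not pass with the array. Their KO spread also narrowed, from an SD of 0.76 to 0.31 in Sgk1 and of 1.18 to 0.68 in Gadd45a. A narrower spread favours calls on either side, so the same condition holds for these calls. None of the 6 unfolded protein and integrated stress genes passed. With 3 arrays against 2, and 1 of the 3 adherent, the number of arrays limits the precision of these values.

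**Figure D3:**
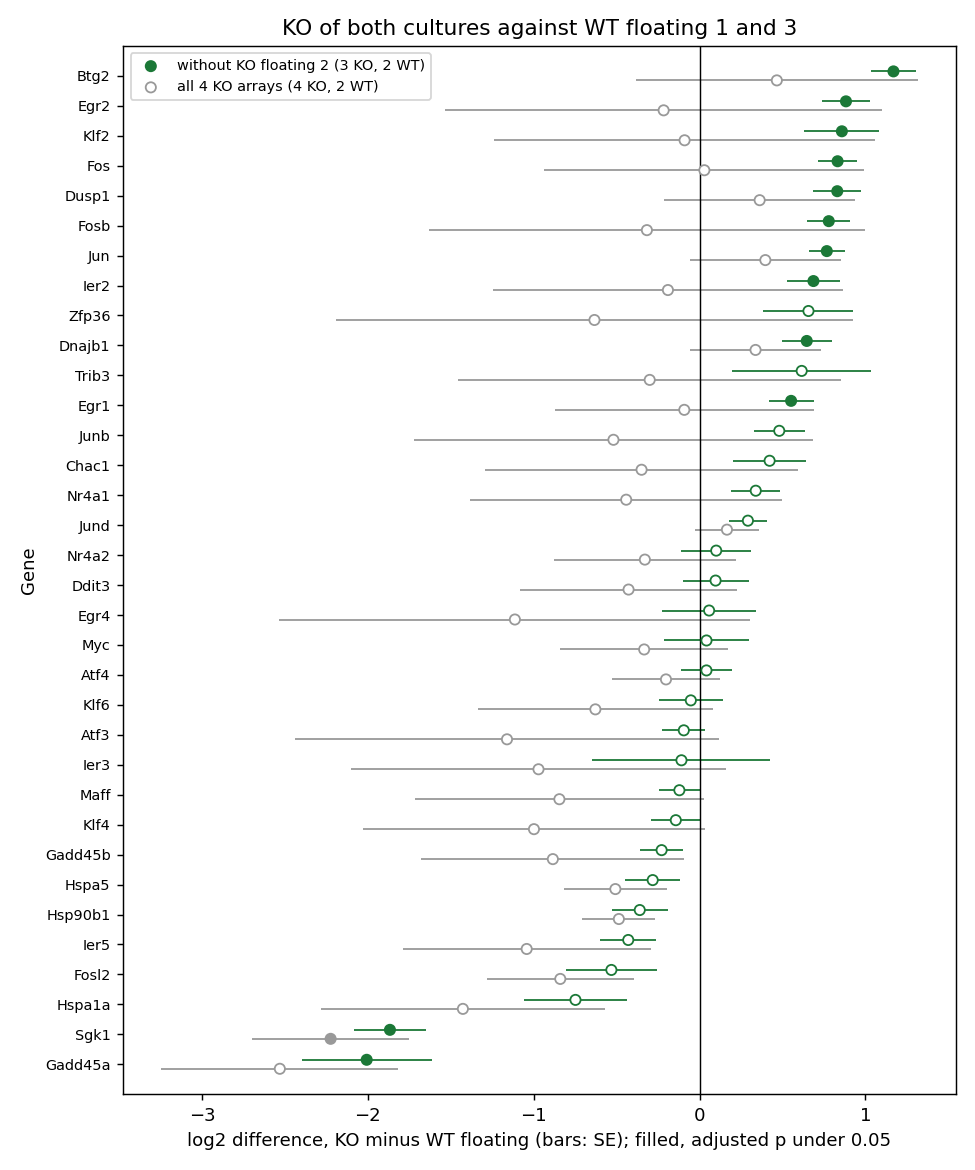
Log2 difference of KO arrays of both cultures minus WT floating 1 and 3 for each tested gene (points, with bars for the standard error), with all 4 KO arrays and without KO floating 2, and filled points where the adjusted p is under 0.05. Sgk1 passes in both, at -2.22 and -1.87, and 10 genes lie to the right as filled points only without KO floating 2, an array left out after its values were seen.

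With a replicate block, the joined comparison on all 4 KO arrays gave 8 of 34 called genes, Btg2, Dusp1, Egr2, Fos, Fosb, Jun, Gadd45a and Sgk1, beside 4125 of 21510 features (19.2%). In that fit number 2 holds KO floating 2 alone, so the block removes that array from the difference, and the same condition holds for these calls. The count of called genes in the joined comparison was 0 without WT floating 1, WT floating 3, KO floating 1 or KO adherent 1, in turn, and 2 without KO floating 3. The call of Sgk1 was lost in the 4 fits with 0, at adjusted p from 0.0722 to 0.188, while its difference stayed between -2.45 and -1.87.

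Genes of the same pathways that are not among the 38 were given from 4 lists. The lowest pair was KO floating 2 and WT floating 2 in 28 of 40 other immediate early and MAP kinase feedback genes, 17 of 32 other unfolded protein and integrated stress genes, 8 of 20 other heat shock genes and 16 of 20 other growth arrest and p53 target genes, beside 27% of all features. The neuronal early gene Arc had 4.79 and 5.73 on KO adherent 1 and 2, 4.81, -2.00 and 4.74 on KO floating 1, 2 and 3, and 4.76, -0.89 and 4.92 on WT floating 1, 2 and 3, a drop of 49.5-fold. Ccn2, a matrix-associated growth factor, ranged from -4.82 on KO floating 2 to 3.15 on WT floating 3, with -2.89 on WT floating 2. Mthfd2, a mitochondrial enzyme of folate metabolism, dropped 3.13-fold, and the small heat shock proteins Hspb1 and Hspb8 4.39-fold and 1.25-fold. Perp, a p53 target of cell adhesion, did not have this lowest pair and ranged from -3.21 on KO adherent 1 to 0.63 on KO adherent 2. No gene of these lists passed in either comparison as labelled.

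In the joined comparison, where 17.3% of all features passed (8.98% higher and 8.34% lower), 1 of 40 early and feedback genes was higher in KO and 3 were lower. The Ets factor Etv4, induced by growth factor signals, was higher by 1.48 (limma adjusted p = 0.0382), and its paralogue Etv5 (-0.48), the CREB family member Crem (-0.84) and the kinase Plk3 (-0.86) were lower. Of 32 unfolded protein and integrated stress genes, Phgdh, the first enzyme of serine synthesis, was higher by 0.75 (limma adjusted p = 0.0298) and 5 were lower. These were the cystine transporter Slc7a11 (-1.81) and the ER genes Hyou1 (-1.02), Sdf2l1 (-0.93), Calr (-0.88) and Manf (-0.64), the weakest with limma adjusted p = 0.0325. Hspa5 and Hsp90b1, the ER chaperones among the 38, did not pass there. Of 20 heat shock genes, the small heat shock protein Cryab was higher (0.77) and Hspa4l (-1.04), Hspb8 (-1.55) and Stip1 (-0.56) were lower. Of 20 growth arrest and p53 target genes, Rrm2b was higher (0.71) and Perp (-2.63) and Sesn1 (-1.29) were lower. Without KO floating 2 the counts were 1 higher and 6 lower of 40, 1 and 9 of 32, 1 and 4 of 20, and 0 and 3 of 20, against 23.6% of all features (13.4% higher and 10.2% lower). No count is taken as a result about a list.

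Genes other than the 38 whose profile was most like the set were ranked by Pearson r over the 8 arrays to the median profile of the 23 tested early genes, as a description without a test. Of 11425 candidates above background on every array, clone and predicted names left out, 102 had r over 0.95. The 8 highest were Gdap10 (0.994), Neurl2, Bnip3, Vldlr, Arc, Fam162a, Pgam1 and Ccl2 (0.985). Arc and Vldlr are also in the pathway lists above. Over the 6 arrays other than KO floating 2 and WT floating 2, r was 0.860 for Vldlr, 0.823 for Pgam1, 0.789 for Gdap10 and 0.701 for Neurl2, and between 0.324 (Arc) and 0.435 (Fam162a) for the other 4. Bnip3, a mitochondrial membrane protein of mitophagy, had 6.98 on KO floating 2 and 7.14 on WT floating 2, with 8.16 to 8.29 on the other 6. Ccl2, a chemokine, had -3.74 on KO floating 2 and -3.17 on WT floating 2, with 0.35 or more on the others. Pgam1, an enzyme of glycolysis, had 7.04 and 7.23 on that pair and 7.96 to 8.31 elsewhere.

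**Figure D4:**
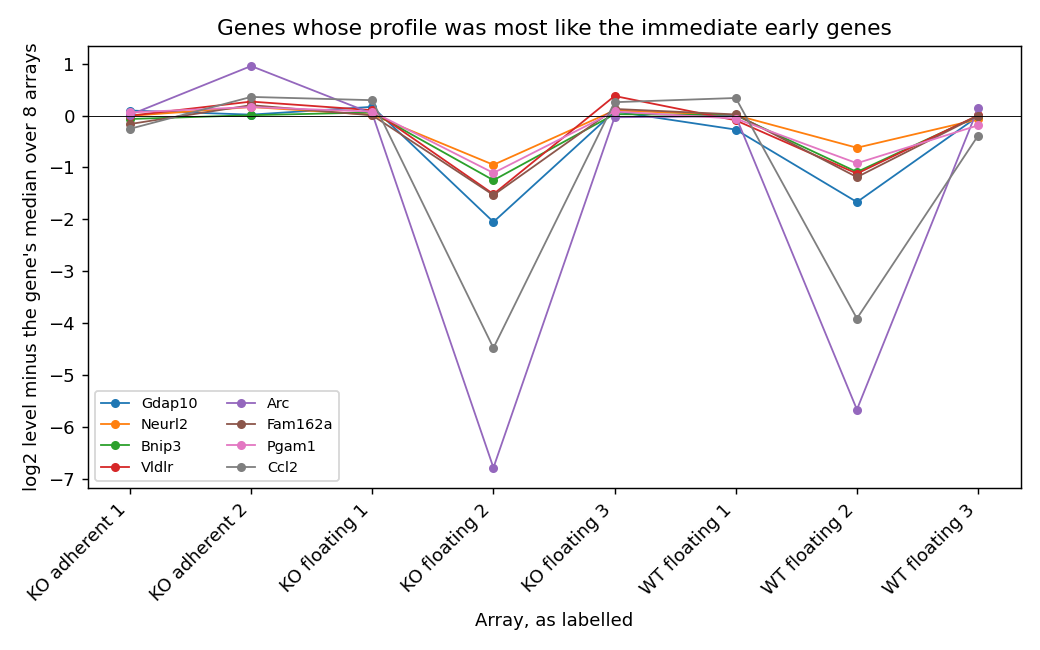
Log2 level minus the median of the gene over 8 arrays for the 8 genes whose profile was most like that of the early genes, by array (KO adherent, KO floating, WT floating from left to right). Lines join the arrays for reading only; all 8 genes are lowest on KO floating 2 and WT floating 2, with Arc the deepest.

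The 75th percentile of the signal ranged from 616 to 865 and was highest on WT floating 2 (865) and KO floating 2 (856), while 44.5% to 55.4% of spots were above background, with 47.5% on KO floating 2 and 55.4% on WT floating 2. No probe of the set was saturated. Of the neural stem and radial glia markers, 8 of 8 were above background on every array, and their summed level was 9.01 to 9.86 in KO adherent, 9.34 to 9.93 in KO floating and 8.97 to 9.71 in WT floating, with KO floating 2 and WT floating 2 the highest of their groups. Of the oligodendrocyte lineage markers, 6 of 6 were above background on every array, and their summed level was 6.28 to 7.09 in KO adherent, 7.10 to 7.63 in KO floating and 5.64 to 7.59 in WT floating, with KO floating 2 (7.63) and WT floating 2 (7.59) the highest arrays of all 8. The astrocyte sum was 6.91 to 7.86 in KO adherent, 7.48 to 8.24 in KO floating and 6.09 to 7.85 in WT floating, with KO floating 2 the highest of all 8. Each sum is the log2 of summed linear levels, so the brightest markers weigh most and others can go the other way. The astrocyte marker Gfap was lowest on KO floating 2 (-5.18) and WT floating 2 (-5.06), though above background on only 3 of 8 arrays. The stem marker Vim was lowest in each floating group on the same arrays (7.03 and 7.25). Of the microglia and macrophage markers, 5 of 8 (Aif1, Cx3cr1, Tyrobp, C1qa and Ptprc) were above background on no array. Itgam (3.53 to 4.67) and Csf1r (0.11 to 1.21) were above background on every array, and C1qb on 6. The summed level was 3.75 to 4.77 in KO adherent, 4.01 to 4.50 in KO floating and 3.83 to 3.91 in WT floating. Of 5 fibroblast and mural markers, Pdgfrb and Rgs5 were above background on no array. Of the 5, 0 were above background on every array, so their sum lies near the floor. The summed level was -2.95 on KO floating 2 and -2.13 on WT floating 2, with -1.29 to -0.01 on the other 6 arrays. Acta2 (-4.75 and -4.03 on the pair) and Col1a1 (-4.42 and -3.84) also had this lowest pair. Col3a1 (-5.85 and -3.61) did not. In the joined comparison, 5 of 8 stem, 3 of 5 neuron, 4 of 5 astrocyte and 5 of 6 oligodendrocyte lineage markers passed in limma. Of these, 3, 3, 3 and 4 were higher in KO. Of all features, 17.3% passed there, with 8.98% higher and 8.34% lower, and no count is taken as a result about a cell type. The part of cell composition in the results was not tested.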

How the data were processed

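The scanner files deposited by the authors hold spot intensity on a linear scale for 8 single-colour (Cy3) arrays. Agilent Feature Extraction 11.0.1.1 wrote them, per the file headers, while version 9.1.3.1 is named in the submitters' processing notes. The authors' deposited value table holds the same intensity values without normalization between arrays (99.2% of values within 0.01% on each array). The processed signal was log2-transformed, and the 75th percentile of each array's non-control spots was subtracted. Outlier spots were dropped (200 probes were then missing on some array), and repeats of a probe were averaged. A probe was kept if well above background, in at least 0.5 of its spots, throughout at least 1 group, and each gene was represented by its brightest probe. Of 55681 probes, 27235 matched a gene through the accession in a RefSeq table of GRCm38.p6, and 22712 features, 13232 with a symbol, were tested in the fit of all 8 arrays. The 38 genes had 41 probes, and 4 genes had a pair of them.

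Tests were two-sided and used lmFit, contrasts and eBayes of limma 3.58.1 under R 4.3.3, with Benjamini-Hochberg adjustment over all features and a threshold of 0.05, in 1 fit of 3 groups or with the 4 KO arrays of both cultures joined. The fits were tested on simulated data. The deviations of KO and WT floating arrays of one number from their group means correlated (r across features of 0.103, 0.590 and 0.335 for numbers 1, 2 and 3), which counts as pairing by the rule used, while some differently numbered arrays did so too (0.346 for KO floating 3 with WT floating 1). Values with a replicate block are given where they change a call.

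The members, lists and comparisons were chosen with earlier results of these data known. Levels on every array are given for called genes and, in each role, the pair with the highest mean and the pair with the widest range. Fits are given for called genes or else the 3 with the smallest p. Of the other lists, up to 4 called genes per direction are named, or else the pair with the widest range. Leaving out KO floating 2 and WT floating 2 was chosen after seeing the data. Alternatives were quantile normalization, normexp with an offset of 50, scaling to the median of detected probes, the value table, other filters, every probe, only the groups compared, trend and robust eBayes, replicate and slide-row blocks, and leaving out each array.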

Additional observations from a re-analysis of the deposited data

Results flagged for a closer look

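Among the 4 KO arrays of both cultures that remain without KO adherent 2, 34 genes were examined for an array far from the others by Dixon's test. KO floating 2 stood apart on the low side in 21 of them. Chance marks about 1 in 20 groups, but genes on one array are not independent and the array had already been singled out from these values, so the count restates its low levels and is no further test. The levels on KO floating 2 (log2 minus the 75th percentile) were, for AP-1 genes, 3.54 in Fos, -0.24 in Fosb, 5.56 in Jun, -3.60 in Junb, 5.07 in Jund, -2.42 in Atf3 and -0.53 in Maff. Other transcription factors had 4.96 in Egr1, 1.57 in Egr2, 0.73 in Egr4, 4.83 in Nr4a1, -0.61 in Nr4a2, -1.08 in Klf2 and 0.13 in Klf4. The remaining early genes had -0.92 in Ier2, -4.03 in the second probe of Ier5, 1.53 in Dusp1 and -3.30 in Zfp36. Stress and growth arrest genes had -0.16 in Chac1, 1.23 in Btg2 and -0.16 in Gadd45b. WT floating 2 was not examined in this way.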

How the results depend on the processing

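In the joined comparison Sgk1 kept its direction under every setting run. Leaving out KO floating 2 turned the joined differences of Fosb, Egr1, Egr2, Klf2 and Ier2 from negative to called positive ones, and the set median to 0.10, against -0.44. The count of listed genes called stayed at 0 in KO against WT floating, in KO adherent against KO floating, and in the first of these without the 2 arrays whose Cbx3 opposes the label, under every setting run. In the joined comparison, with 1 gene called, the count was 2 with normexp, 0 with no filter, 2 with the filter on every array, 8 with the replicate block and 0 to 12 over leaving out each array. Features called in KO against WT floating (1) were 0 with normexp, no filter, the filter on every array, only these groups, the replicate block, the slide row as a block, trend and robust eBayes, and without WT floating 2 and KO floating 2, 46 without the 2 arrays whose Cbx3 opposes the label, and 0 to 3 over leaving out each array. In KO adherent against KO floating (0) they were 7 with quantile normalization and 0 to 6 over leaving out each array. Without the 2 arrays (46) they were 11 with no filter, 129 with the filter on every array, 460 with only these groups, 0 with the replicate block, 0 with the slide row as a block, 455 with trend and robust eBayes, and 0 to 460 over leaving out each array. In the joined comparison (3725) they were 179 with no filter and 460 to 5383 over leaving out each array. The cause of these changes was not tested. With no filter the adjusted p of Sgk1 was 0.113. The set of genes with KO floating 2 and WT floating 2 lowest was counted at 30 to 34 of 34 under the scalings run. Precision is limited by 2 or 3 arrays per group.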

Other observations

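Ppp1r15a, a phosphatase subunit that ends the integrated stress response, lay at -6.07 on KO floating 3, below background, and at 5.62 on KO floating 1 and 5.73 and 5.86 on KO adherent 1 and 2. It had 3.06 on KO floating 2, and 5.76, 3.03 and 5.83 on WT floating 1, 2 and 3, so apart from KO floating 3 it had the same low pair as the early genes. Gas6, a growth arrest gene that encodes a ligand of TAM receptors, had 1.21 and 6.14 on KO adherent 1 and 2, 3.74, 0.65 and 4.47 on KO floating 1, 2 and 3, and 5.61, 3.36 and 5.71 on WT floating 1, 2 and 3.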
